A study of Mus musculus with 15 samples.

Results

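The control line and the Atf4 line of a mouse neural precursor culture were compared across all genes, using the 5 RNA-seq libraries titled for each line out of 15 libraries in the series. The libraries were chosen by title alone, so no measured value entered the choice. Both lines came from the hippocampus of mice aged 6 weeks and carried, inserted by piggyBac transposition, a puromycin resistance gene and a Tet-On 3G transactivator under the SV40 promoter. In the Atf4 line the cassette also held the Atf4 coding sequence behind the doxycycline-responsive TRE3G promoter, and in the control line it held neither Atf3 nor Atf4. The Atf3 line, with the Atf3 coding sequence and again 5 libraries, shared 1 model fit with these libraries and was compared directly with the Atf4 line where stated. In every line, control included, EGF and FGF2 were withdrawn to start differentiation, doxycycline was added at the same moment at 100 ng/ml, and RNA was taken 10 h later. Each construct was carried by 1 stable line, so an effect of the inserted sequence and any other difference between the lines cannot be told apart. The sources used here do not say whether replicates were separate cultures, so the p-values below speak only for the spread among these libraries, part or all of which could be technical.

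ATF4 is a basic leucine zipper transcription factor and the main effector of the integrated stress response, in which phosphorylation of the initiation factor eIF2 lowers translation in general while favouring that of the Atf4 messenger RNA. It binds, often with a C/EBP partner, a composite C/EBP-ATF element and activates genes for amino acid uptake and synthesis, for loading amino acids onto transfer RNAs, and for feedback on the stress response itself. Hippocampal precursors divide under EGF and FGF2 and leave the cell cycle towards neurons or glia once these factors are removed, a setting in which immediate early genes such as Fos and Egr1 respond quickly to outside signals.

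Library totals ranged from 53697071 to 65399630 counts in the control line and from 55037567 to 69561713 counts in the Atf4 line. At least 1 count was found for 26419 to 27247 genes per control library and for 25399 to 26068 genes per Atf4 library, ranges that did not overlap. Along the first principal component of the 10 libraries, which held 64.5% of the variance, control libraries lay between -42.8 and -36.7 and Atf4 libraries between 28.7 (replicate 1) and 53.0 (replicate 5). Levels are given as CPM, a gene's counts relative to the TMM-scaled total of its library. The precursor markers Sox2 (218 to 248 CPM) and Nes (610 to 1023 CPM) were present in all 10 libraries, as was the oligodendrocyte lineage factor Olig2 (1054 to 1466 CPM). The labels describe the source mice as female, but the Y-linked genes Ddx3y (55.4 to 72.1 CPM) and Eif2s3y (65.0 to 89.7 CPM) were expressed in all 10 libraries and Xist, the RNA of the inactive X chromosome, did not exceed 0.65 CPM. Of markers of other cell types, the microglial and endothelial ones named next were close to 0 in both lines. Among microglial markers, Aif1, Cx3cr1 and Csf1r reached at most 0.0537, 0.0562 and 0.104 CPM. Of endothelial markers, Pecam1, Cdh5 and Cldn5 reached at most 0.251, 0.252 and 0.0482 CPM. Other members of these lists, described below, were not close to 0. The microglial list summed to 50.4 to 54.3 CPM in the control and 39.0 to 44.7 CPM in the Atf4 libraries. The endothelial list summed to 46.2 to 50.6 CPM and 19.6 to 23.0 CPM. The neuronal nuclear protein gene Rbfox3 reached 0.415 CPM and the myelin gene Mbp 0.608 CPM. Other markers were present: Tubb3, for neurons, ranged from 31.7 to 87.6 CPM, Gfap, for astrocytes, from 59.2 to 143 CPM and Foxj1, a factor of ciliated ependymal cells, from 20.0 to 37.4 CPM, while the ciliary motor gene Dnah5 did not exceed 0.193 CPM.

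Atf4 (ENSMUSG00000042406, chr15:80255184-80257541, plus strand in GRCm38) itself stood at 76.3, 82.9, 77.4, 86.7 and 92.6 CPM in control replicates 1 to 5 and at 128, 147, 149.6, 154 and 188 CPM in Atf4 replicates 1 to 5. Every Atf4 library lay above every control library, and replicate 5 was the highest. The log2 fold change was 0.88 ± 0.08 (SE), with an adjusted p of 1.9e-08 by edgeR's quasi-likelihood test. The gene counts do not separate transgene reads from reads of the cells' own Atf4. In the Atf3 line the mean of Atf4 was 250.3 ± 16.5 CPM (SD, n = 5), and the Atf4 line lay below it by an edgeR log2 difference of -0.71 (adjusted p = 1.9e-06). The line named for Atf4 therefore did not hold the highest Atf4 level of the series. Atf3, a stress-induced relative of Atf4, stood at 1.67, 3.02, 1.85, 11.0 and 7.55 CPM in the control libraries and at 1.14, 1.22, 1.27, 1.47 and 1.90 CPM in the Atf4 libraries. Control replicates 4 and 5 were the high ones, and the remaining control values overlapped those of the Atf4 line. The log2 fold change of Atf3 was -1.88 (edgeR adjusted p = 0.00091), and -0.65 without control replicates 4 and 5 (adjusted p = 0.0061).

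The difference between the lines reached most of the transcriptome, but was small for most genes. Of 18244 genes tested, 11246 (61.6%) differed at an adjusted p under 0.05, of which 5821 (31.9% of those tested) were higher and 5425 (29.7%) lower in the Atf4 line. Counts of called genes in the lists below are to be read beside these shares of 31.9% and 29.7%. The median size of a called change was 0.43 on the log2 scale. At least 2-fold changes were called for 765 genes upwards (4.19%) and 882 genes downwards (4.83%). The lines did not overlap at all in 8733 genes (47.9%), all 5 values of 1 line being above all 5 of the other. The median log2 fold change over all genes tested was -0.00085, so rises and falls were balanced around 0 under this scaling.

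The balance shifted with expression level and gene class. Among 4509 genes averaging under 1 CPM, 522 were higher and 1130 lower, with a median log2 fold change of -0.18. This class held 263 of the genes at least 2-fold higher and 524 of those at least 2-fold lower. The count filter asks for enough reads in as few as 5 libraries, so a gene can pass through the 1 line where it is high. The lean of this class is uncertain to that extent. Among 2338 genes at 100 CPM or more, 1035 were higher and 731 lower, with a median of 0.05. Long noncoding RNA genes leaned downwards, with 242 higher and 726 lower of 2008 tested. The size of that lean depended on level. At 10 CPM or more, 29 of 116 long noncoding genes were higher and 60 lower (51.7%), against 4163 higher and 2902 lower (30.3%) of 9593 protein-coding genes. Between 1 and 10 CPM, 45.3% of 709 long noncoding genes were lower against 34.3% of 2412 protein-coding genes. Under 1 CPM, where 1183 of the long noncoding genes lay, the shares of lower genes were close, at 29.2% and 27.5%, and 9.38% against 14.4% were higher. Gene span went with direction too. Among protein-coding genes at 10 CPM or more, those spanning under 10 kb had 50.9% higher and 22.1% lower, while those spanning 100 to 300 kb had 31.1% higher and 44.6% lower. No gene met the rule for a switch, which asked for at least 1 CPM in every library of 1 line and a mean under 0.1 CPM in the other. The plot of level against change shows this spread and the genes discussed next.

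**Figure D1:**
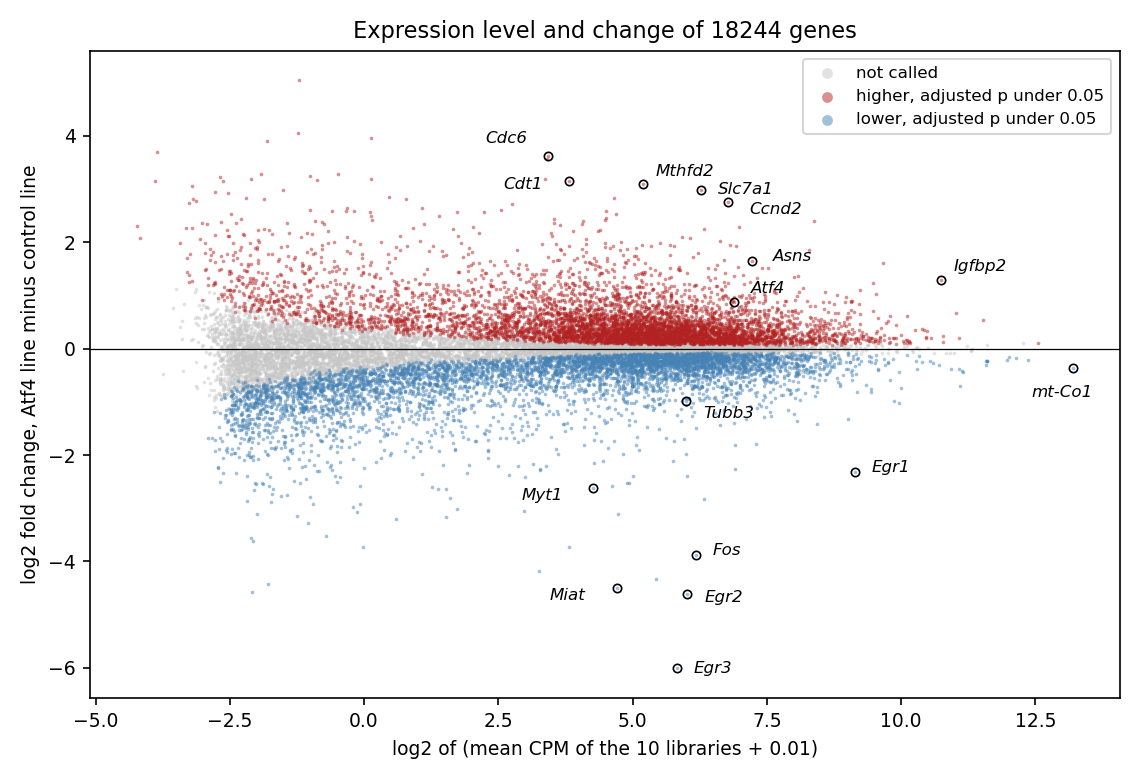
Each point is 1 of 18244 genes; the horizontal axis is the log2 of the mean CPM over the 10 libraries plus 0.01 and the vertical axis the log2 fold change of the Atf4 line over the control line, with called genes in red (higher) and blue (lower). Circled genes are among those named in the text; Cdc6 at 3.62 and Egr3 at -6.01 mark the largest named rise and fall.

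Genes that license, copy and repair DNA were prominent among the largest rises. By the rule used for naming (called, well expressed, no overlap of the lines), the 12 largest rises were Cdc6, Olfr618, Ung, Cdt1, Mthfd2, Slc7a1, Apln, Ccnd2, Adamts14, Rmi2, Ccne2 and Dscc1, with log2 fold changes from 3.62 down to 2.56. Cdc6 (ENSMUSG00000017499, chr11:98907801-98923940, plus strand), which loads the replicative helicase onto origins, stood at 1.19, 1.36, 1.97, 1.78 and 1.74 CPM in the control libraries and at 14.9, 19.2, 19.2, 21.2 and 24.6 CPM in the Atf4 libraries. The groups lay far apart, with the lowest Atf4 library (replicate 1) well above the highest control library. Its log2 fold change was 3.62 ± 0.13 (SE, edgeR adjusted p = 2.4e-13). Cdt1, the partner of Cdc6 in licensing, rose from 2.65, 2.70, 3.46, 2.79 and 2.68 CPM to 20.4, 22.7, 25.2, 26.4 and 32.7 CPM over the same libraries, again without overlap (log2 fold change 3.16 ± 0.12). Ung encodes the glycosylase that removes uracil from DNA and rose by 3.19, Rmi2 belongs to the complex that dissolves crossed DNA strands and rose by 2.60, and Dscc1 helps load the sliding clamp and rose by 2.56. Ccne2 encodes cyclin E2, which drives entry into S phase, and rose from a mean of 6.53 ± 0.790 to 39.0 ± 5.48 CPM (SD, n = 5 each). Olfr618 rose by 3.56, but it belongs to the large odorant receptor family, whose members can share reads, so its value is uncertain.

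The list of DNA replication machinery as a whole moved up. Of its 54 members, all tested, 51 (94.4%) were higher, against 31.9% of all genes tested, 39 of them at least 2-fold, and none was lower; the median log2 fold change was 1.40 against -0.00085 over all genes tested. The members' summed level was 1441 to 1629 CPM in the control libraries and 3298 to 3815 CPM in the Atf4 libraries. The summed mean level was similar in the Atf4 line (3562 CPM) and the Atf3 line (3625 CPM). Compared with the Atf3 line, 3 members were higher and 7 lower. Mcm5, a helicase subunit, stood at 23.4, 22.8, 28.4, 28.1 and 26.2 CPM in the control line and at 99.3, 106, 109, 116 and 112 CPM in the Atf4 line. The Atf4 libraries lay close together, all about as far above the control libraries (log2 fold change 2.07 ± 0.06, edgeR adjusted p = 9.3e-14). Mcm6, another subunit, rose by 1.94, and Tk1, the thymidine kinase of S phase, by 1.93.

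E2F factors are the classical activators of this gene group, so the RefSeq promoter windows (250 bases before to 50 after a start, GRCm38.p6) were searched on both strands for an E2F site spelled TTTCGCGC or TTTGGCGC. These letters were chosen after the rise of the group was seen. Either spelling was present for 12 of the 45 replication genes with a window (26.7%), for 185 of 10890 tested protein-coding genes with a window (1.70%) and in 267 of all 32851 windows (0.813%). Among genes at least 2-fold higher the share was 4.61% (22 of 477) and among genes at least 2-fold lower 0.508% (2 of 394). Because 39 of the 54 replication list members were at least 2-fold higher, the share of the higher group is not separate from that of the list. The windows of Mcm5 (chr8:75109259-75109558, plus strand), Mcm6 (chr1:128359656-128359955, minus strand) and Cdt1 (chr8:122567765-122568064, plus strand) are shown because they hold matches in 3 of the genes described here. They read 5′ to 3′ in the direction of the gene, with E2F matches on either strand in capitals, and in Mcm5 and Mcm6 matches of both spellings overlap. Cdc6 and Ung had a window without either spelling. Other spellings of an E2F site were not searched, so this says nothing about other sites in these windows or about binding elsewhere.
Mcm5: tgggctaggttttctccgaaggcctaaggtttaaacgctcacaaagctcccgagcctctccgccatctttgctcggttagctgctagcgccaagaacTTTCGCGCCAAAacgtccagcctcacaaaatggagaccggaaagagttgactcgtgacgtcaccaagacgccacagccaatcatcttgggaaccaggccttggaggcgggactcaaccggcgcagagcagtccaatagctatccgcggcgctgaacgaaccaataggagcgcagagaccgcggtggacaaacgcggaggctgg
Mcm6: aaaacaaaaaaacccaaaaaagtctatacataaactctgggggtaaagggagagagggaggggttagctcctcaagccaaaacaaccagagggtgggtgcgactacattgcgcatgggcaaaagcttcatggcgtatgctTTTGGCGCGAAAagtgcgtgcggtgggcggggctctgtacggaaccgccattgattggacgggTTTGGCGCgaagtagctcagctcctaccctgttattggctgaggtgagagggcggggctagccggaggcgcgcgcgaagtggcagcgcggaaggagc
Cdt1: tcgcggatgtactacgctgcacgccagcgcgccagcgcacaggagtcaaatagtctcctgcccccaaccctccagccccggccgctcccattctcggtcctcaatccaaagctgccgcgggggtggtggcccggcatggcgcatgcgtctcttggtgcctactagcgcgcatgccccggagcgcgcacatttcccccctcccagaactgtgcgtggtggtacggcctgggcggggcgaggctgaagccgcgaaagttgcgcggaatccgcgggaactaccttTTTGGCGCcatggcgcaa

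Genes of later cell cycle phases rose less. Of 26 G2 and mitosis genes, 22 were higher and none lower, with a median log2 fold change of 0.58. Aurkb, the chromosomal passenger kinase, rose by 1.18, and Birc5 (survivin), its partner, by 0.71. Mki67, the common proliferation marker, was not called, at 301, 311, 316, 338 and 265 CPM in the control line and 285, 309, 317, 377 and 399 CPM in the Atf4 line. Control and Atf4 values of Mki67 overlapped (log2 fold change 0.14, edgeR adjusted p = 0.21). Among 12 cyclins and CDK inhibitors 10 were higher and 2 lower. Ccnd2, cyclin D2, stood at 25.3, 29.6, 30.1, 27.0 and 29.5 CPM in the control line and at 127, 154, 184, 205 and 291 CPM in the Atf4 line. Every Atf4 library was above every control library, although the Atf4 libraries themselves were widely spread, with replicate 5 the highest (log2 fold change 2.76 ± 0.17, adjusted p = 8.7e-11). Ccne1, cyclin E1, rose by 1.70. The inhibitors did not move together. Cdkn1a (p21) rose by 0.98, whereas Cdkn1b (p27) fell by 0.28 and Cdkn1c (p57) fell by 1.54 on the log2 scale. Btg2, an antiproliferative gene of neurogenic precursors, fell by 1.28, while p53 target genes in general were higher in 9 and lower in 4 of 15. Replication-dependent histone genes did not show such a rise: of 52 tested 3 were higher, 12 lower and 37 not called, with a median of -0.10. Together they summed to only 238 to 271 CPM in the control and 178 to 232 CPM in the Atf4 libraries. Without control replicates 4 and 5, 7 were lower, so little can be read from this list.

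Amino acid supply genes, the best known targets of ATF4, rose broadly. Of 21 enzymes of amino acid and one-carbon synthesis, 19 were higher (8 at least 2-fold) and 2 lower, with a median log2 fold change of 0.73. This rise was not particular to the Atf4 line. Compared with the Atf3 line, 1 of the enzymes was higher and 14 were lower. Their summed mean level was 2369 CPM in the control, 3586 CPM in the Atf4 and 4253 CPM in the Atf3 line. Mthfd2 (ENSMUSG00000005667, chr6:83305691-83325908, minus strand), the mitochondrial folate enzyme, stood at 7.39, 7.02, 8.36, 8.07 and 7.90 CPM in the control libraries and at 45.3, 52.1, 63.4, 69.2 and 99.5 CPM in the Atf4 libraries. All Atf4 libraries lay above all control libraries, and replicates 1 and 5 marked the ends of a wide range (log2 fold change 3.09 ± 0.16, edgeR adjusted p = 1.7e-11). Asns, asparagine synthetase, stood at 74.8, 70.6, 72.0, 73.8 and 71.5 CPM and 196, 203, 232, 238 and 273 CPM, without overlap (log2 fold change 1.65 ± 0.07). The serine pathway enzymes rose less: Shmt2 by 1.05, Psat1 by 0.59 and Phgdh by 0.56. Gpt2, the mitochondrial alanine aminotransferase, went the other way and fell by 0.29.

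Among 15 amino acid transporters 11 were higher, 3 lower and 1 not called. Slc7a1, a carrier of cationic amino acids, stood at 15.6, 18.4, 18.8, 17.9 and 17.0 CPM in the control line and at 83.9, 102, 123, 150.4 and 231 CPM in the Atf4 line. Replicate 5 of the Atf4 line was far above the other Atf4 libraries, which were themselves all above the control line (log2 fold change 2.98 ± 0.20, adjusted p = 4.3e-10). Slc7a11, the cystine importer, stood at 5.65, 5.80, 6.24, 6.31 and 5.12 CPM and 15.2, 16.2, 18.7, 23.4 and 37.4 CPM, again with replicate 5 the highest and no overlap (log2 fold change 1.93 ± 0.19). Slc6a9, a glycine carrier, rose by 1.47, and Slc7a5, a carrier of large neutral amino acids, rose by 1.02 and was the one member of the list higher than in both other lines. Slc38a1, a glutamine carrier, fell by 0.72. Aminoacyl-tRNA synthetases, which load amino acids onto transfer RNAs, were higher in 32 of 38 and lower in 2, with a median of 0.49. Compared with the Atf3 line, 2 of them were higher and 23 lower. Mars (methionine) rose by 1.52, Iars (isoleucine) by 1.43, Gars (glycine) by 1.33 and Yars (tyrosine) by 1.29.

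Effectors of the integrated stress response were not uniform. Of 21 tested, 15 were higher and 3 lower, with a median of 0.55. Compared with the Atf3 line, 1 was higher and 15 were lower. Trib3, a pseudokinase that feeds back on ATF4, stood at 0.642, 0.734, 0.949, 0.757 and 0.830 CPM in the control line and at 2.66, 2.72, 3.96, 3.85 and 9.08 CPM in the Atf4 line. Chac1, which degrades glutathione, stood at 0.915, 0.626, 0.826, 0.727 and 0.430 CPM and 1.67, 2.32, 2.92, 3.05 and 8.01 CPM. For both genes Atf4 replicate 5 was more than 2-fold above every other Atf4 library, yet all Atf4 libraries exceeded the control line. The log2 fold change was 2.49 ± 0.31 for Trib3 and 2.34 ± 0.36 for Chac1 (edgeR adjusted p = 1.4e-06 and 1.5e-05). Eif4ebp1, a repressor of cap-dependent translation, rose by 1.75, Nupr1, a stress-inducible chromatin protein, by 1.50, and Atf5, a close relative of ATF4, by 0.89. The dimer partners Cebpb and Cebpg rose by 0.91 and 0.38, and Sesn2, an inhibitor of mTORC1, by 0.34. Vldlr, a lipoprotein receptor known as an ATF4 target, rose by 0.55. Ddit3, which encodes CHOP, stood at 10.4, 11.7, 10.8, 13.3 and 13.1 CPM in the control line and at 10.2, 11.0, 11.0, 10.9 and 12.9 CPM in the Atf4 line. The groups overlapped and the gene was not called (log2 fold change -0.09, adjusted p = 0.32). Ppp1r15a, encoding the GADD34 phosphatase subunit, fell by 0.67. Ddit4, an mTORC1 inhibitor, fell by 0.37 (edgeR adjusted p = 0.0047), and without control replicates 4 and 5 the value was -0.28 with an adjusted p of 0.0528.

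The composite core TGATGCAA was searched on both strands in the same RefSeq windows. It was present for 71 of 10890 tested protein-coding genes with a window (0.652%) and in 294 of all 32851 windows (0.895%). Among genes at least 2-fold higher the share was 7 of 477 (1.47%), and among genes at least 2-fold lower 2 of 394 (0.508%). The 7 were Chac1, Slc7a11, Nupr1, Iars, Yars, Got1 and Fgl2, and the 2 were Atf3 and Abca13, all named because they held the letters. The looser spelling TGATGNAA, tried after the matches of the first were seen and containing it, was present for 294 tested genes (2.70%), 25 of 477 higher genes (5.24%), 15 of 394 lower genes (3.81%) and 1304 of all windows (3.97%). The cyclic AMP response element TGACGTCA was present for 3.52% of tested genes, 2.52% of the higher and 2.54% of the lower group, and in 1.79% of all windows. The AP-1 site TGANTCA was present for 6.07%, 6.71% and 8.63%, and in 7.81% of all windows. By their letters, these last 2 motifs can overlap neither each other nor the composite core, so their counts are of separate matches. Of 17 genes looked up by name, Atf4, Atf3 and 15 targets of the stress response, 6 held TGATGNAA in a window (4 of them the full core) and 11 did not, among them Mthfd2, Psat1, Phgdh and Shmt2. Windows of 4 genes that rose and held a match are shown in the direction of the gene, 5′ to 3′, with TGATGNAA on either strand in capitals. They are Asns (chr6:7693160-7693459, minus strand, match beginning 23 bases before the start), Chac1 (chr2:119350992-119351291, plus strand, 193 before), Slc7a11 (chr3:50443564-50443863, minus strand, 66 and 47 before) and Trib3 (chr2:152344011-152344310, minus strand, 14 after).
Asns: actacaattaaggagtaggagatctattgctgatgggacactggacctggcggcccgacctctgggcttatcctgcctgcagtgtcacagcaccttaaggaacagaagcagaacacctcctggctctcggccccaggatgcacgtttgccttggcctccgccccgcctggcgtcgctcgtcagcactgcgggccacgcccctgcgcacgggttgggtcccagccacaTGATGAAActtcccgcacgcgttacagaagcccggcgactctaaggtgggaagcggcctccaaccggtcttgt
Chac1: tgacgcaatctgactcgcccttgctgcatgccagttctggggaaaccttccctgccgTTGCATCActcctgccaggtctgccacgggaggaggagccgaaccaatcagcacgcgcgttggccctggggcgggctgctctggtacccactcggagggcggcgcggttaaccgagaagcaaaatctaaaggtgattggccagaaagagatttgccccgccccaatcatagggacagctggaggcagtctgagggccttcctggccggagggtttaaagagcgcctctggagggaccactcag
Slc7a11: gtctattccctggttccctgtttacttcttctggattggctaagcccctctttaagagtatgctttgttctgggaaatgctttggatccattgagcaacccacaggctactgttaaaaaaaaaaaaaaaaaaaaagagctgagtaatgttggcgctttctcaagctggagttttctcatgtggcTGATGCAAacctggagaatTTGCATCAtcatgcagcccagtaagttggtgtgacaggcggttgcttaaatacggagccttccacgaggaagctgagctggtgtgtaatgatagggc
Trib3: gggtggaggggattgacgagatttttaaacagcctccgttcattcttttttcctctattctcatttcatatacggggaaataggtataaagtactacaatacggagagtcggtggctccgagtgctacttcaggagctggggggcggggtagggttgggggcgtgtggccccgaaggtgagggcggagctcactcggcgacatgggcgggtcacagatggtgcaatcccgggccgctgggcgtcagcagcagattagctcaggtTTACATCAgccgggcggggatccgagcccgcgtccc

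The window of Atf3 (chr1:191183284-191183583, minus strand) is shown for contrast, because it holds the full core 110 bases before the start in a gene that was not higher in the Atf4 line.
Atf3: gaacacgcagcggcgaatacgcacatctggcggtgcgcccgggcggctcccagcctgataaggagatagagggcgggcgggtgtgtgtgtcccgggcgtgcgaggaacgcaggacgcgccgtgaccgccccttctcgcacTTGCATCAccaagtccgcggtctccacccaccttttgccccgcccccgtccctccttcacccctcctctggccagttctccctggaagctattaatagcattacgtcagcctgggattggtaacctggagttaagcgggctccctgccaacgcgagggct

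**Figure D2:**
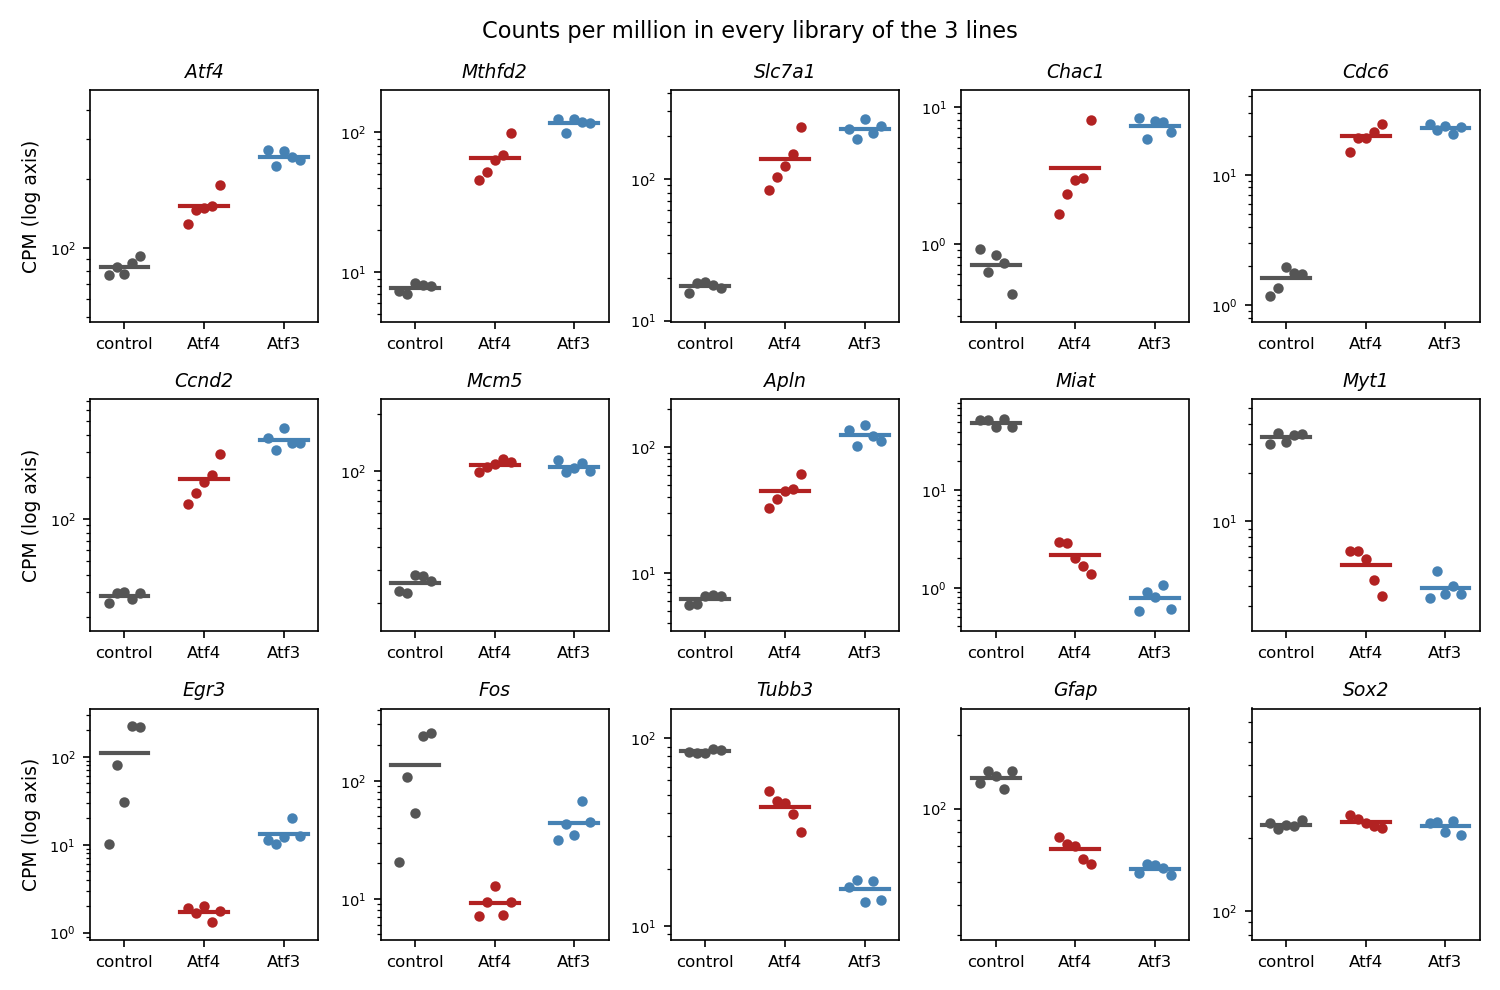
Each panel plots the CPM of 1 gene on a log axis in the control, Atf4 and Atf3 lines, with 1 point per library (replicates 1 to 5 from left to right) and a line at the mean. Cdc6, Mcm5 and Mthfd2 lay higher in every Atf4 than in every control library, Miat, Myt1 and Tubb3 lower, and Sox2 overlapped.

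The protein synthesis machinery rose by small amounts over many genes. Ribosome biogenesis factors were higher in 60 of 65 and lower in 2, with a median of 0.55. Fbl, the methyltransferase fibrillarin of the nucleolus, stood at 39.7, 37.2, 40.0, 39.7 and 43.3 CPM in the control line and at 80.2, 85.0, 89.0, 85.4 and 92.1 CPM in the Atf4 line. The lines did not overlap (log2 fold change 1.11 ± 0.05). Cytosolic ribosomal protein genes were higher in 59 of 80 and lower in none, but their median was 0.15 and 40 of the 80 showed no overlap between the lines, a share near the 47.9% of all genes tested. Mitochondrial ribosomal proteins were higher in 60 of 77, with Mrpl12 at 1.04. Of 54 genes listed as translation initiation factors 35 were higher and 5 lower, including a rise of Eif5a by 0.72. That list also holds the repressor Eif4ebp1, whose rise of 1.75 was its largest. Chaperones of the endoplasmic reticulum were higher in 16 of 20 and lower in none, among them Hspa5 (BiP) at 0.57. Proteasome subunits were higher in 32 of 46, splicing factors in 37 of 52 and nucleoporins in 18 of 20, with Nup85 at 1.45. Small nucleolar RNA host genes, which carry the guides for ribosomal RNA modification, were higher in 8 of 12, with Snhg1 at 0.62.

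Nuclear and mitochondrial genes for the respiratory chain went in opposite directions. Of 81 nuclear genes for respiratory chain and ATP synthase subunits 48 were higher and 3 lower, with a median of 0.16 and Atp5g1, a subunit of the ATP synthase ring, at 0.76. Mitochondrial import, chaperone and protease genes were higher in 26 of 33 and lower in none, with Hspd1 (HSP60) at 0.89. Of the 13 proteins encoded in mitochondrial DNA, none was higher and 9 were lower, with a median of -0.23, and those 9 were lower than in the Atf3 line as well. mt-Co1, the catalytic subunit of complex IV, stood at 10639, 10935, 10456, 10493 and 10472 CPM in the control line and at 8376, 8365, 8082, 7719.8 and 8588 CPM in the Atf4 line. No Atf4 library reached the lowest control library (log2 fold change -0.37 ± 0.04, edgeR adjusted p = 2e-07). mt-Nd4 and mt-Nd5, complex I subunits, fell by 0.31 and 0.38. Mitochondrially encoded genes of all kinds took 4.00 to 4.16% of the counts of each control library and 3.28 to 3.57% of each Atf4 library. In bulk RNA, fewer cells of a type and less RNA per cell cannot be told apart, here and for the markers below.

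Lipid and sugar metabolism changed as well. All 22 sterol synthesis genes were higher, with a median log2 fold change of 0.68. In the opposite direction, 10 of 16 lipid droplet and cholesterol export genes were lower and 2 higher, including Abca1, the cholesterol exporter, which fell by 1.44, and Plin3, a droplet coat protein, which fell by 2.20. Glycolysis genes were higher in 14 of 20 (70%, against 31.9% of all genes tested) and lower in 5 (25%, against 29.7%). The lactate dehydrogenase subunits split, as Ldha rose by 0.88 and Ldhb fell by 0.55. Purine and pyrimidine synthesis enzymes were higher in 15 of 18. Antioxidant and glutathione genes were higher in 11 of 17 and lower in 1, with Gsr, glutathione reductase, at 0.90 and Gclc, the first enzyme of glutathione synthesis, at 0.71. Autophagy and lysosome genes leaned down, with 8 higher and 30 lower of 54.

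Immediate early genes, many of which encode quick-response transcription factors, made up 8 of the 12 largest falls. These 12 were Egr3, Egr2, Miat, Nr4a1, Fosb, Fos, Egr4, Junb, Dscaml1, Ier2, Myt1 and Scg2, with log2 fold changes from -6.01 to -2.58. Of 21 immediate early and AP-1 genes none was higher, 18 (85.7%) were lower, against 29.7% of all genes tested, 16 of them at least 2-fold, and 12 had no overlap between the lines, which 47.9% of all genes tested shared. Egr3 (ENSMUSG00000033730, chr14:70077203-70082614, plus strand), a zinc finger factor, stood at 10.1, 81.1, 30.9, 222 and 216 CPM in the control libraries and at 1.88, 1.69, 2.03, 1.31 and 1.78 CPM in the Atf4 libraries. The control line was heterogeneous, with replicates 4 and 5 far above replicate 1, whereas the Atf4 libraries were tightly grouped below all of them. The log2 fold change was -6.01 ± 0.70 (edgeR adjusted p = 5.4e-07) and -4.56 without control replicates 4 and 5. Fos stood at 20.7, 108, 53.9, 239 and 256 CPM and 7.16, 9.48, 12.8, 7.32 and 9.46 CPM, with the same control libraries high, and Egr1 at 275, 1344, 767, 925 and 1403 CPM and 135, 165, 215, 150.3 and 276 CPM. For Egr1 the highest Atf4 library slightly exceeded the lowest control library. The log2 fold change was -3.87 for Fos and -2.32 for Egr1, and -2.73 and -2.09 without control replicates 4 and 5.

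Leaving out those 2 control libraries reduced the size of the change in most of these genes. Of the 21 genes 16 were then called lower and none higher, and the median moved from -1.81 to -1.22. Klf4 and Fosl1 were no longer called, moving from -0.26 to -0.12 and from -1.52 to -0.72 (edgeR adjusted p = 0.20 and 0.38). Leaving out control replicate 2 or 4 or Atf4 replicate 3, 4 or 5 alone also ended the call of Fosl1 (adjusted p from 0.0516 to 0.172). Arc, at under 1 CPM in all 10 libraries and not called in either case, turned from -0.72 to 0.86 (adjusted p = 0.24 and 0.14). These 3 genes are named because their values changed in this way. Fosb went from -4.18 to -1.90, Egr4 from -3.73 to -2.02, Nr4a1 from -4.32 to -3.08, Egr2 from -4.61 to -3.75, Junb from -3.11 to -2.31 and Ier2 from -2.83 to -2.05. Leaving out control replicate 4 alone moved Fosb to -3.40. Ccn1, a matricellular protein induced by similar signals, fell by 2.17 and had a value of -1.13 without both libraries. Of 16 feedback and Pea3 genes of the MAP kinase pathway, 6 were higher and 4 lower, shares near those of all genes tested (31.9% and 29.7%). Dusp5, a phosphatase that inactivates ERK in the nucleus, fell by 1.34, while the Pea3 family factors Etv4 and Etv5, targets of FGF signalling, rose by 1.61 and 0.88. The plot of immediate early genes shows each library.

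**Figure D3:**
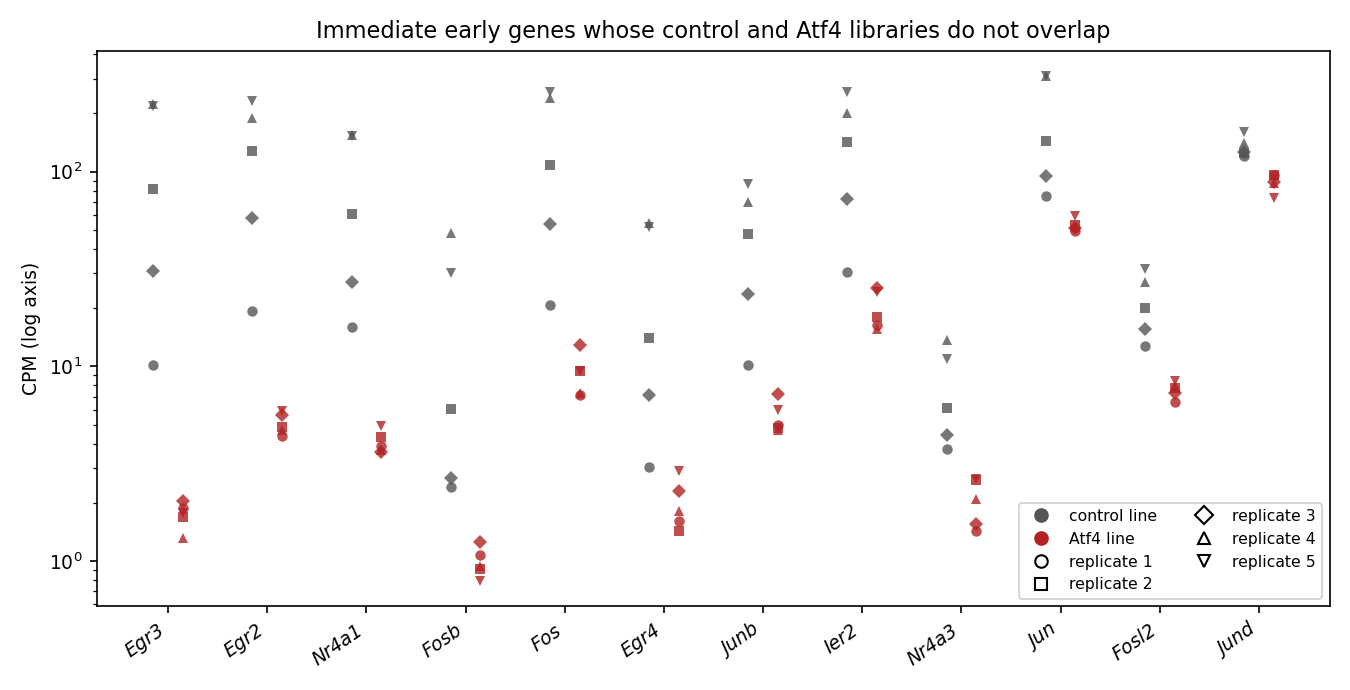
CPM on a log axis of the 12 immediate early and AP-1 genes without overlap, in control (grey) and Atf4 (red) libraries, with the marker shape giving the replicate. Control replicates 4 and 5 lay highest for Egr3, Fos and Nr4a1 and replicate 1 lowest, while the Atf4 libraries stayed below every control library.

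The other 4 of the 12 largest falls were Miat, Myt1, Dscaml1 and Scg2. Miat (ENSMUSG00000097767, chr5:112213228-112229395, minus strand), a long noncoding RNA of the nucleus, stood at 53.2, 52.5, 45.1, 53.7 and 44.9 CPM in the control libraries and at 2.93, 2.91, 2.01, 1.66 and 1.40 CPM in the Atf4 libraries. The lines were widely separated (log2 fold change -4.49 ± 0.15, edgeR adjusted p = 9.8e-14). About 24.3% of its exon bases are shared with a predicted gene, and the library kit does not mark strand. Myt1, a zinc finger factor of neurogenesis, stood at 29.9, 35.3, 30.9, 34.0 and 34.6 CPM and 6.55, 6.59, 5.83, 4.31 and 3.45 CPM, without overlap (log2 fold change -2.61 ± 0.14). Dscaml1, a cell adhesion protein of neurons, fell by 3.05, and Scg2 and Chgb, secretory granule proteins, fell by 2.58 and 2.52. Of 11 long noncoding RNAs known from neural tissue, none was higher and 9 were lower, with a median of -1.31. Neat1, the scaffold of paraspeckles, fell by 1.36.

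Precursor identity genes were mixed. Of 15 neural stem and precursor markers 8 were higher (53.3%, against 31.9% of all genes tested) and 5 lower (33.3%, against 29.7%). Their median was 0.14. Sox2 stood at 230.5, 218, 228, 224 and 239 CPM in the control line and at 248, 240.3, 231, 226 and 219.9 CPM in the Atf4 line. The lines overlapped and Sox2 was not called (log2 fold change 0.03, adjusted p = 0.52). Nes, the intermediate filament nestin, rose by 0.33, Fabp7, the brain fatty acid binding protein, by 0.70, Slc1a3, a glial glutamate transporter, by 0.84, and Sox9 by 0.54. Prox1, a factor of hippocampal granule neurons, fell by 0.86. Among 16 Notch pathway genes 2 were higher and 10 lower, including the effector Hes1, which fell by 1.08. Id4, an inhibitor of differentiation factors, fell by 1.59, whereas the receptor Notch3 rose by 0.67.

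Glial markers were mostly lower, while neuronal markers were called in either direction at shares closer to those of all genes tested. Tubb3, the neuronal tubulin, stood at 84.4, 83.6, 82.9, 87.6 and 86.8 CPM in the control libraries and at 52.2, 46.2, 45.3, 39.3 and 31.7 CPM in the Atf4 libraries. The lines did not overlap, and Atf4 replicate 5 was the lowest (log2 fold change -0.99 ± 0.10, edgeR adjusted p = 7.9e-08). Dcx, doublecortin, fell by 1.45 at levels near 1 CPM or below. Over the 22 neuronal markers tested 7 were higher (31.8%, against 31.9% of all genes tested) and 9 lower (40.9%, against 29.7%), with a summed level of 3446 to 3642 CPM in the control line and 2501 to 2784 CPM in the Atf4 line. Dlx1, 1 of the 7 higher members, rose by 0.78 without overlap, from a mean of 1.28 to 2.20 CPM. Gfap, the astrocyte filament, stood at 128, 142, 137, 121 and 143 CPM and 76.5, 71.5, 70.1, 62.0 and 59.2 CPM, without overlap (log2 fold change -0.98), and S100b fell by 1.26. Of 11 astrocyte markers 3 were higher and 7 lower. Among 11 oligodendrocyte lineage markers 2 were higher and 8 lower. Cnp, a myelin enzyme, stood at 543, 503, 474, 488 and 504 CPM in the control line and at 264, 197, 198, 157 and 122 CPM in the Atf4 line (log2 fold change -1.42), and Olig2 fell by 0.23. Bcas1, 1 of the 2 higher members, rose by 0.50 without overlap, from a mean of 18.2 to 25.7 CPM.

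Marker lists for microglia, mural cells and fibroblasts, endothelium and ependyma were detected only in part. Of 10 microglial markers 3 passed the count filter (1 higher, 2 lower), 2 were at 0 in all 10 libraries, and the summed level was 50.4 to 54.3 CPM in the control line and 39.0 to 44.7 CPM in the Atf4 line. Mural and fibroblast markers summed to 0.949 to 1.54 CPM and 0.786 to 1.04 CPM, with 2 of 9 tested and 1 of them lower. Endothelial markers, 6 of 8 tested with 3 higher and 2 lower, summed to 46.2 to 50.6 CPM and 19.6 to 23.0 CPM. Most of that sum was Kdr, the VEGF receptor, which went from a mean of 44.3 to 16.4 CPM. Ependymal markers, 4 of 8 tested with 1 higher and 1 lower, summed to 24.2 to 28.1 CPM and 31.3 to 40.7 CPM. Most of that sum was Foxj1, with means of 22.7 CPM in the control and 34.1 CPM in the Atf4 line. The part of these cell types in the results was not tested.

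Chromatin, adhesion and matrix genes leaned down. Of 73 chromatin and DNA methylation enzymes 16 were higher and 42 lower. Dnmt1, the maintenance methyltransferase that works behind the replication fork, rose by 1.38, while the remodeller Chd7 fell by 1.19 and the demethylase Kdm5b by 0.87. Zinc finger genes named Zfp were higher in 52 and lower in 172 of 358, with Zfp462 at -1.15. Protocadherins, adhesion proteins that give neurons surface identity, were lower in 38 of 54 and higher in 10, with a median of -0.49. Many of them are encoded in clusters with shared exons, so reads can be split between members. Collagens, laminins and integrins were lower in 29 of 62 and higher in 15, with Col4a1, a basement membrane collagen, at -0.87. Genes for transport in cilia were lower in 15 of 28 and higher in 3. The plot of list shares sets these counts beside the share of all genes tested.

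**Figure D4:**
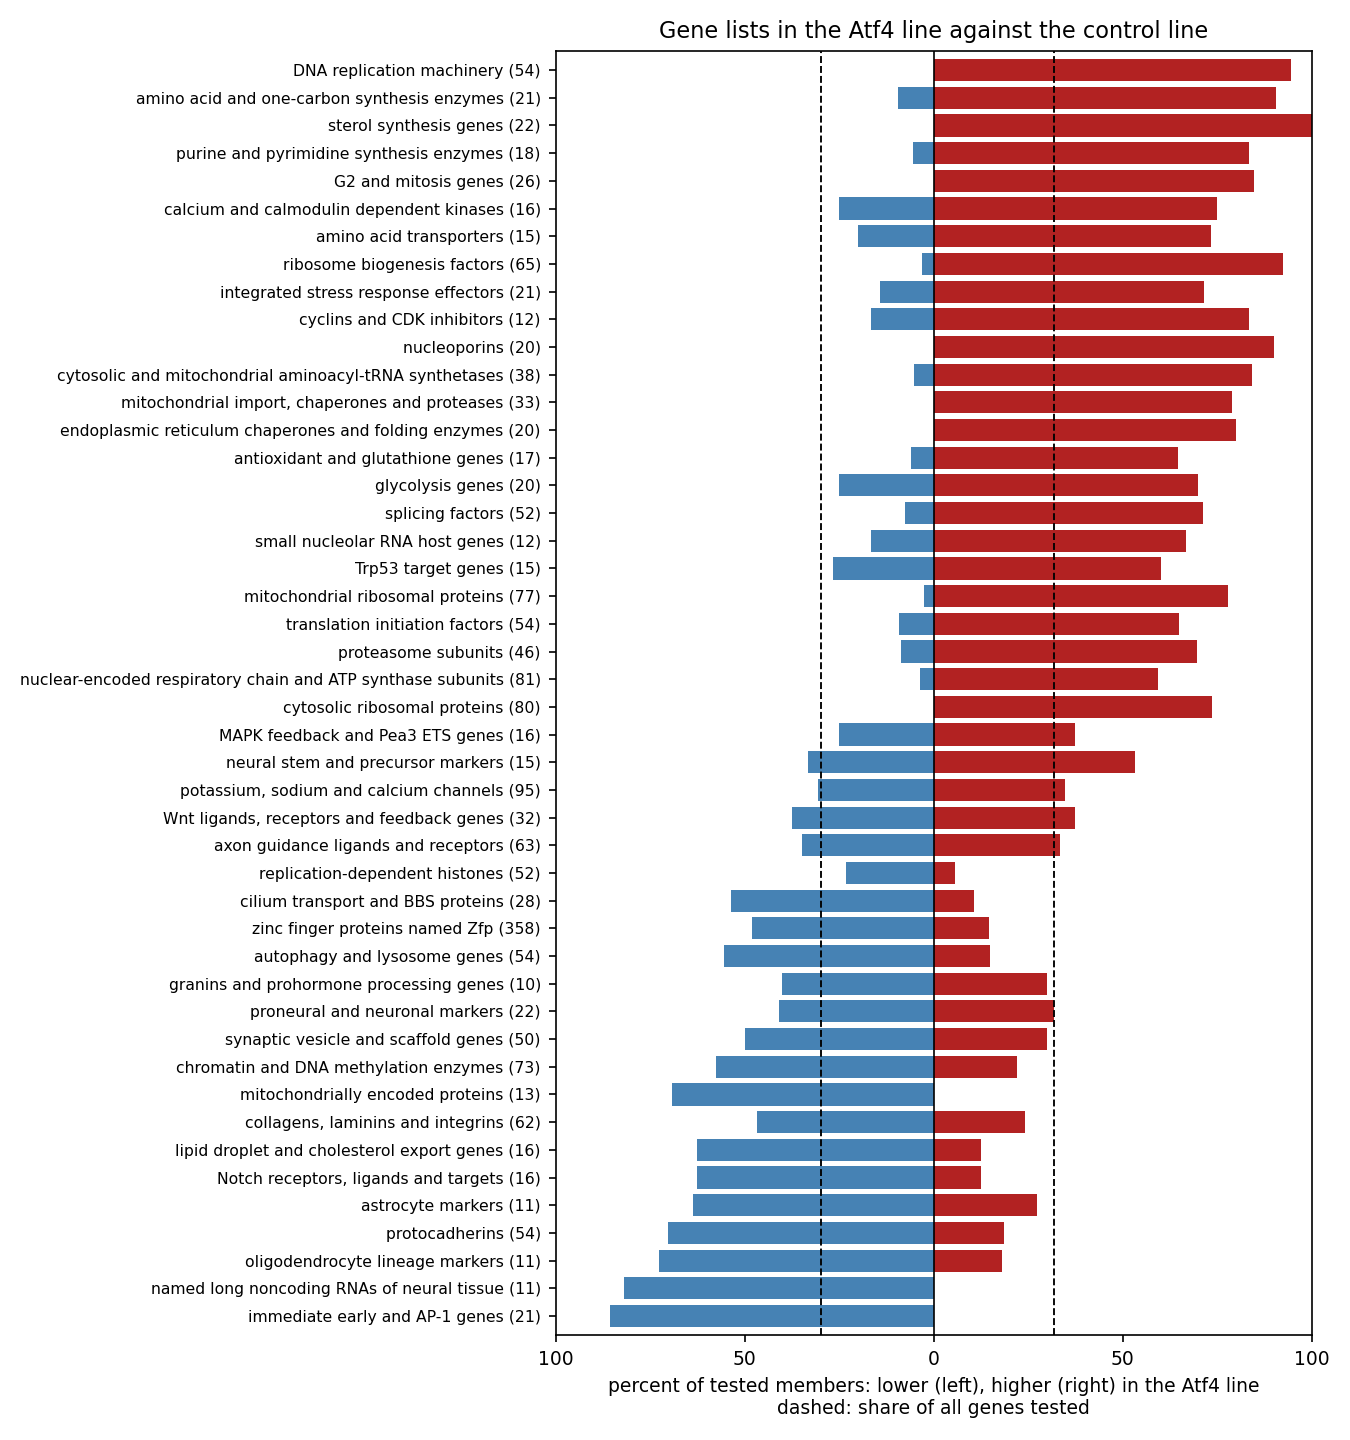
For each gene list with at least 10 tested members (number in brackets), bars give the percent of tested members higher (red, right) and lower (blue, left) in the Atf4 line at an adjusted p under 0.05, ordered by the list's median log2 fold change. Dashed lines mark 31.9% higher and 29.7% lower over all genes tested; DNA replication machinery is at the top with 94.4% higher, immediate early genes at the bottom with 85.7% lower.

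The 6 largest gains of mean CPM, a scale that favours long transcripts, were in Igfbp2, Igfbp3, Serpine2, Hspa8, Hip1 and Slc7a5. Igfbp2, a binding protein of insulin-like growth factors, stood at 1023, 924, 978, 993 and 1040.0 CPM in the control line and at 2499, 2196, 2696, 2398 and 2381 CPM in the Atf4 line. Igfbp3, a related protein, stood at 392, 420.0, 407, 365 and 414 CPM and 1049, 1104, 1258, 1253 and 1456 CPM. Neither gene showed overlap between the lines (log2 fold changes 1.30 and 1.61). Serpine2, a protease inhibitor secreted by neural cells, rose by 0.54, Hspa8, a constitutive chaperone, by 0.67, and Hip1, an endocytic adaptor, by 1.23. Apln encodes the peptide apelin and rose from a mean of 6.20 ± 0.578 to 44.5 ± 10.5 CPM (SD, n = 5 each). Adamts14, a procollagen peptidase, rose by 2.73. Besides mt-Co1, mt-Nd4 and Egr1, the largest losses of mean CPM were in Tmsb4x, which sequesters actin and fell by 0.70, Marcks, which links membranes and actin and fell by 0.45, and Lrrn1, a neuronal membrane protein, which fell by 1.02.

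Setting the Atf4 line beside the Atf3 line placed it in between for many genes. Against the Atf3 line 7958 genes (43.6%) differed, 3595 higher (19.7%) and 4363 lower (23.9%) in the Atf4 line. For 2771 genes (15.2%) the Atf4 line was higher than control and lower than Atf3, and for 1846 (10.1%) lower than control and higher than Atf3. A further 5560 genes (30.5%) differed from control without being called against Atf3. These comparisons share the Atf4 libraries, so their values are given side by side only. Tubb3 had means of 85.1 CPM in the control, 42.9 CPM in the Atf4 and 15.7 CPM in the Atf3 line, and Apln of 6.20, 44.5 and 124 CPM. Cdc6 differed from that pattern, with 1.61, 19.8 and 22.8 CPM and no call between the Atf lines.

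Fewer genes set the Atf4 line apart from both others. Higher than in both were 561 genes (3.07%) and lower than in both 508 (2.78%). By the rule for naming, the former were led by Miga1, Clmn, Marveld1, Notch3, Fbln7 and Map1b. Miga1, a protein of mitochondrial fusion, stood at 10.1, 8.05, 8.70, 8.77 and 8.90 CPM in the Atf4 libraries, against 4.51, 4.46, 4.34, 3.95 and 4.72 CPM in the control line and a mean of 5.06 ± 0.604 CPM in the Atf3 line (SD, n = 5). Its Atf4 libraries lay above all control libraries (log2 fold change 1.02 over control and 0.81 over Atf3). Map1b, a neuronal microtubule protein, rose by 0.72 over control, but its Atf4 and control libraries overlapped. The genes lower than in both were led by Ccn1, Egr1, Egr2, Egr3, Fos and Junb, and 12 of the 21 immediate early genes were in that class. Egr3 had a mean of 13.3 CPM in the Atf3 line against 1.74 CPM in the Atf4 line. Of the 26 G2 and mitosis genes 8 were higher than in both lines, and 21 of the 22 sterol synthesis genes were lower than in the Atf3 line.

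Within the Atf4 line the replicates differed in how far they stood from the control line. Replicate 5, which had the highest Atf4 level, was the highest of the 5 libraries for 490 of the 765 genes at least 2-fold higher (64.1%) and the lowest for 384 of the 882 genes at least 2-fold lower (43.5%). Replicate 1, which had the lowest Atf4 level, was the lowest for 484 of the 765 (63.3%) and the highest for 340 of the 882 (38.5%). The 765 and 882 genes were called from these same Atf4 libraries, so a library far from the control line helps to place genes in these classes. A relation to the Atf4 level was not tested. Among 6998 genes that were not called, replicates 1 and 5 were each the highest for 1802 (25.8%) and 1789 (25.6%). They were each the lowest for 1616 (23.1%) and 2061 (29.5%). The median log2 ratio of the 765 genes to the control mean was 1.04 in replicate 1 and 1.42 in replicate 5. The plot of extremes gives these shares for each library.

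**Figure D5:**
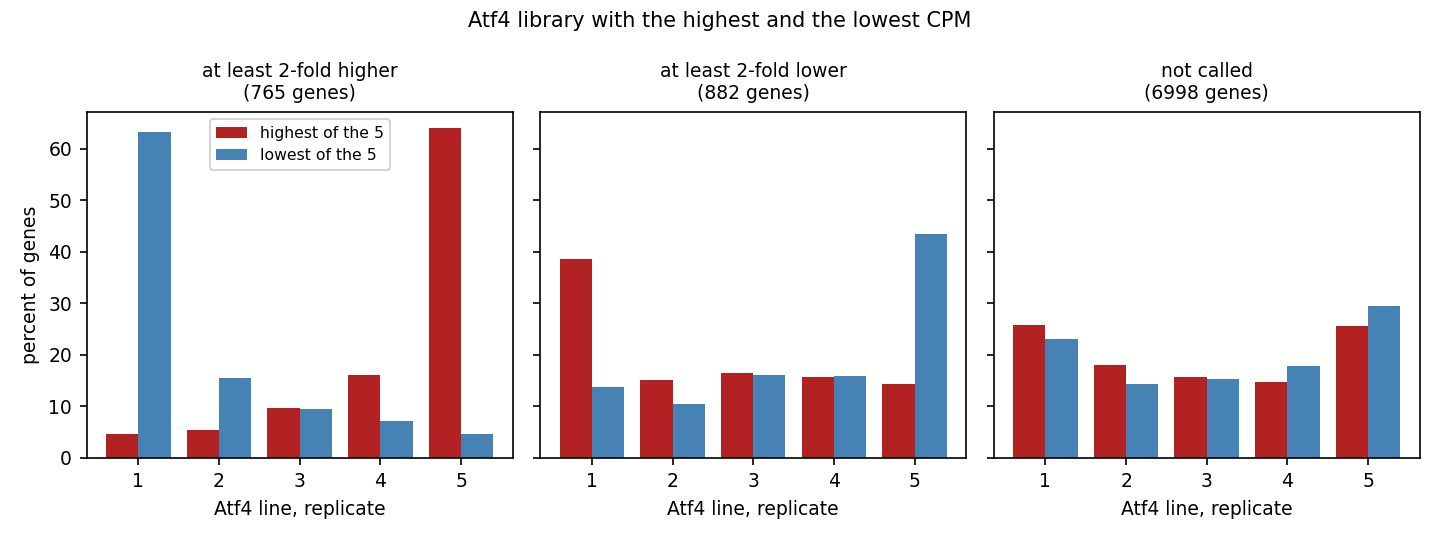
For 765 genes at least 2-fold higher, 882 at least 2-fold lower and 6998 not called, bars give the percent of genes for which each Atf4 library (horizontal axis, replicate number) had the highest (red) or lowest (blue) CPM of the 5. Replicate 5 was highest in 64.1% and replicate 1 lowest in 63.3% of the genes at least 2-fold higher.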

How the data were processed

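RNA from 15 libraries of 3 neural precursor lines was prepared with a kit that does not mark strand, per the labels, and the deposited table holds raw counts per gene and library. Reads were aligned to mm10 with STAR and edgeR was used, per the submitters' processing notes. The sources used here give neither versions nor the counting program, its strand setting or its annotation. Every per-sample column was used. Symbols and positions came from GENCODE M21 (GRCm38), which matched 52135 of 55416 gene identifiers, and unmatched ones took at most 0.208% of a library's counts. The 18244 genes kept by filterByExpr were fitted in edgeR 4.0.16 (R 4.3.3) over all 15 libraries with TMM scaling and the quasi-likelihood test, with Benjamini-Hochberg adjustment and a threshold of 0.05. The SE of a log2 fold change is its size divided by the square root of F. No 2 libraries of a line agreed within sampling noise (chi-square per degree of freedom 5.47 to 53.4).

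Named genes were Atf4, Atf3, 22 targets and markers named whatever their result, the 12 largest rises and falls (called, log2 CPM averaging 2 or more, lines not overlapping), the 6 largest gains and losses of mean CPM, up to 2 rising and 2 falling members with the smallest adjusted p per list, and the 6 leading genes in each direction against both other lines. Predicted genes were left out of the ranked parts. Some genes that met these rules are not reported here. The members and lists were chosen with earlier results of these data known, so no list was tested and counts are read beside those of all genes. Of the genes named, 6 share at least 20% of their exon bases with another gene (Cdkn1c, Cebpb, Dusp5, Fosl1, Miat and Slc6a9), and their values are uncertain to that extent. Promoter windows were taken from RefSeq (GRCm38.p6), which gave one for 10890 of 13936 tested protein-coding genes. Alternatives were RLE and upper quartile scaling, DESeq2 1.42.0, limma-voom 3.58.1, other count filters, a replicate block, the 10 libraries alone, and leaving out libraries.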

Additional observations from a re-analysis of the deposited data

Results flagged for a closer look

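For 133 of the named genes, the 5 libraries of each line were looked at as a group, giving 266 groups. In 9 of these groups, 1 library stood apart from the other 4 by Dixon's criterion (a gap to the nearest value of more than 0.71 of the group's range). Chance marks about 1 in 20 such groups, so the number is no more than chance gives. Atf4 replicate 5 was the outlying library for both Chac1, at 8.01 CPM against 3.05 CPM in the next library, and Trib3, at 9.08 CPM against 3.96 CPM. It was also the outlying library for Arc, at 0.449 CPM against 0.228 CPM. In the same line, replicate 2 was low for Psat1 at 585 CPM and replicate 1 high for Slc38a1 at 2.15 CPM. Among control libraries, replicate 3 was high for Cdt1 at 3.46 CPM, replicate 2 for Dscaml1 at 15.3 CPM, replicate 1 for Slc6a9 at 8.03 CPM and replicate 4 for Camk1g at 1.47 CPM. Without Atf4 replicate 5, Chac1 and Trib3 were still called higher.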

How the results depend on the processing

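Of 112 counts of genes recomputed under 19 alternatives, 109 stayed within 1.5 times the reported count. Without a filter on low counts 1503 genes were at least 2-fold lower, against 882. Requiring 1 CPM in 5 libraries left 500 genes at least 2-fold higher and 426 at least 2-fold lower, against 765 and 882, since 14001 genes were then tested. Leaving out 1 library at a time gave 5380 to 5671 higher, 5339 to 5616 lower, 673 to 837 at least 2-fold higher and 886 to 1028 at least 2-fold lower genes. Upper quartile scaling turned the split to 5009 higher and 6380 lower (44.0% of calls higher, against 51.8%), with the median of all genes at -0.06. With the replicate number as a block, 5691 genes were higher and 5277 lower, 515 and 452 against both other lines. The numbers do not pair the samples: correlations of deviations between same-numbered libraries lay between -0.06 and 0.07, and 1 of 5 Atf4 libraries correlated best with its own number. Of 2523 single-gene values 2509 kept their direction and side of the threshold. Calls were lost for Ddit4, Klf4 and Fosl1 without control replicates 4 and 5, and Fosl1 also without each of 5 single libraries, with the replicate block (-1.36, adjusted p = 0.0553) and in limma-voom (-0.86, adjusted p = 0.28). Of genes not called, Sox2 turned sign under upper quartile scaling (-0.023) and with the 1 CPM filter (-0.00064), and Ddit3 (0.016) and Arc (0.86) without control replicates 4 and 5. Of 1900 list counts 1842 stayed within 1.5 times. The larger ones that did not were oligodendrocyte markers lower (8, then 5) and neural long noncoding RNAs lower (9, then 5) with the 1 CPM filter, histones lower (12, then 7) without control replicates 4 and 5, and initiation factors lower (5, then 8) under upper quartile scaling. The others began at 4 members or fewer. At these depths 6998 genes were not called, which does not show that they did not differ, and genes under 1 CPM had the least precise values.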

Other observations

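Several neural gene families changed in both directions at once, with counts near those of all genes tested (31.9% higher, 29.7% lower). Of 95 potassium, sodium and calcium channel genes tested 33 were higher (14 at least 2-fold) and 29 lower (11 at least 2-fold). Kcnk3, a background potassium channel, fell by 2.12 on the log2 scale, from 90.7, 95.7, 90.7, 76.2 and 85.4 CPM in the control libraries to 25.1, 19.2, 23.8, 18.1 and 14.7 CPM in the Atf4 libraries. Cacng8, an auxiliary subunit of AMPA receptors, rose by 1.68, from 15.4, 16.1, 16.0, 16.4 and 18.1 CPM to 46.0, 52.9, 52.3, 54.7 and 56.9 CPM. Neither gene showed overlap between the lines. Among 63 axon guidance genes 21 were higher and 22 lower, with the ligand Efnb2 at 1.14 and the semaphorin Sema5a at -1.65.

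The list of calcium and calmodulin dependent kinases, which also holds the kinase inhibitor Camk2n1, leaned up. Of its 16 members 12 were higher (75%, against 31.9% of all genes tested) and 4 lower (25%, against 29.7%). Camk2a, the main synaptic kinase of the family, stood at 48.5, 51.5, 53.0, 55.9 and 53.0 CPM in the control line and at 12.1, 11.2, 8.51, 8.12 and 5.44 CPM in the Atf4 line, and Camk1g at 0.996, 1.04, 0.914, 1.47 and 1.01 CPM and 3.83, 4.80, 4.96, 5.97 and 6.39 CPM. Both pairs of groups were fully separated, in opposite directions (edgeR log2 fold changes -2.52 and 2.25). Wnt pathway genes were higher in 12 and lower in 12 of 32 (37.5% each), shares near those of all genes tested. They included a rise of the ligand Wnt7a by 1.59 and a fall of Wnt4 by 1.49. Synaptic vesicle and scaffold genes leaned down, with 15 higher and 25 lower of 50. Rab26, a small GTPase of secretory vesicles, rose by 2.37. In its Rab family list 17 of 55 were higher (30.9%) and 15 lower (27.3%), near the shares of all genes tested. Granins and prohormone processing genes were higher in 3 and lower in 4 of 10, too few to set apart from the shares of all genes tested.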
